A study of Mus musculus with 2 samples.

Results

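The potassium channel genes of the Kcn family were followed in chromatin accessibility profiles of mouse heart, in 1 library from mice with a cardiac-specific knockout of Ythdc1 (Ythdc1 CKO) and 1 library from Ythdc1flox/flox mice. Members were all peaks that the authors' comparison table assigns to a gene identifier lying on a protein-coding gene whose symbol begins with Kcn. Identifiers were placed by the gene start and end in the table, on the mouse build GRCm38, and kept where the deposited ontology text also names potassium. The rule found 207 of 58076 peaks, assigned to 71 of 24480 gene identifiers. Of the 94 Kcn protein-coding genes in the RefSeq gene table, 71 thus had an assigned peak and 23 had none.

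The series asks how open chromatin in the heart differs once Ythdc1, whose protein binds methylated adenosine in nuclear RNA, is lost there. Both genotypes were sampled at 15 days of age on normal chow. The assay was ATAC-seq: a transposase inserts adapters where DNA in isolated nuclei is accessible, so that a count per peak measures how many sequenced fragments came from that open region. The promoter or Cre line that drives the deletion, the number of animals behind each library and any pooling are not stated by the labels, and no agent is named for the controls beside the floxed allele.

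Potassium channels carry the outward currents that end the cardiac action potential and hold the resting potential. Voltage-gated pore-forming subunits open on depolarisation, inward rectifiers pass current mainly near the resting potential, and channels with a tandem of pore loops in each subunit give background current. Auxiliary subunits bind the pore-forming ones and set how many channels reach the membrane and how fast they gate. In the adult mouse ventricle, repolarisation rests mainly on transient outward and slowly inactivating currents, whereas the rapid delayed rectifier carried by the Kcnh2 channel dominates in larger mammals.

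Promoter windows of 4 genes are shown because they lie under the peaks that the results below turn on: the internal promoter of Kcnh2 and the only peak of Kcnj3, both with fewer counts in the knockout library, the promoter of Kcnip2, and the promoter of Kcna5, which had more. Each is the 250 bases upstream of a RefSeq transcript start, from RefSeq on GRCm38.p6, written 5′ to 3′ on the strand of the gene. The Kcnh2 window is chr5:24329592-24329841 on the minus strand, the Kcnj3 window chr2:55435720-55435969 on the plus strand, the Kcnip2 window chr19:45816064-45816313 on the minus strand and the Kcna5 window chr6:126535556-126535805 on the minus strand. Capitals mark matches, on either strand, to the motifs searched: a GC box, an E-box, a TEAD motif and a GATA motif.
Kcnh2: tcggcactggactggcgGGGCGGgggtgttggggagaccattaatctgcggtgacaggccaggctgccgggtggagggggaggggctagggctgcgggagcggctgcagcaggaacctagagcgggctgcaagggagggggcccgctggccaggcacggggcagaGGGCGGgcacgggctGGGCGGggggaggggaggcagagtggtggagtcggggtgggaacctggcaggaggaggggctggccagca
Kcnj3: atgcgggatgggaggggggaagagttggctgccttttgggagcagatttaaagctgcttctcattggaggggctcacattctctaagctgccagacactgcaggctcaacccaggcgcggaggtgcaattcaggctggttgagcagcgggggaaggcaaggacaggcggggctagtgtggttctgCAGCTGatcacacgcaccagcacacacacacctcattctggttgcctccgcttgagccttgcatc
Kcnip2: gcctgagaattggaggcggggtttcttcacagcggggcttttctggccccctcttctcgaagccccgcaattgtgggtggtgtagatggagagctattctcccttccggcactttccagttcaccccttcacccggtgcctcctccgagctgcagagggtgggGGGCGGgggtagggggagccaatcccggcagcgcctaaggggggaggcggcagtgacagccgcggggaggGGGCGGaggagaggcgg
Kcna5: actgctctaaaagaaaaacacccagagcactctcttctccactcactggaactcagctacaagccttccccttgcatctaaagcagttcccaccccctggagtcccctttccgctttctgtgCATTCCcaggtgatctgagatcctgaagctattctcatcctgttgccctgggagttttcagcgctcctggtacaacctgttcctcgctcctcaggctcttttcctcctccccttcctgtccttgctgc
The Kcnh2 window held 3 GC boxes and the Kcnip2 window 2, the Kcnj3 window held 1 E-box, and the Kcna5 window held 1 TEAD match on the opposite strand. The peaks of Kcnh2 and Kcna5 covered all 250 bases of their windows, that of Kcnip2 covered 241 and that of Kcnj3 covered 177. GC content was 73.6% in the Kcnh2 window, 66.8% in that of Kcnip2, 58.4% in that of Kcnj3 and 53.2% in that of Kcna5, against a mean of 53.2% over all promoter windows. None of the searched motifs overlaps another in these 4 windows. Over the 74 windows available for 50 of the 71 Kcn genes, the GC box, searched as GGGCGG, was found in 45.9% (32.7% of all 32851 promoter windows). The E-box, searched as CAGCTG, was found in 23% of them (13% of all). The TEAD motif, searched as GGAATG, was found in 10.8% (12.6% of all) and the GATA motif, searched as AGATAA, in 4.05% (9.99% of all). These matches describe letters in the windows and do not locate a bound factor.

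Counts inside peaks came to 6466537 in the knockout library and 6755590 in the flox/flox library, and values below are counts, counts scaled by these totals (CPM) or log2 ratios of knockout over flox/flox with 0.5 counts added to each library. Over all peaks the median log2 ratio was -0.05. With 1 library per genotype no test was possible and no value has a replicate error, so 2-fold serves as a fixed rule of size and each 95% exact (Clopper-Pearson) interval covers counting error only. All 6 cardiomyocyte marker genes searched (Tnnt2, Tnni3, Myh6, Ryr2, Actn2 and Pln) had assigned peaks. So had all 5 endothelial, all 5 fibroblast and all 6 pericyte and smooth muscle markers, 3 of 4 myeloid markers (not Cd68) and 2 of 4 neuronal and glial markers. Because markers of every cell type searched had peaks, the presence of a peak does not check the labelled tissue. The Ythdc1 promoter had 314 counts in the knockout library and 358 in the flox/flox library, which is no check of the deletion because the labels do not say which exons are floxed. Summed over their peaks, cardiomyocyte markers had 1065 CPM in the knockout library and 1201 CPM in the flox/flox library (ratio 0.886), endothelial markers 624 and 527 (ratio 1.18) and fibroblast markers 184 and 144 (ratio 1.27). The ratio was 0.843 for pericyte and smooth muscle markers, 1.14 for myeloid markers and 0.785 for neuronal and glial markers. The myeloid interval, 0.917 to 1.43, held 1. The pericyte and smooth muscle list includes Kcnj8, itself a Kcn gene. Of its 5 strongest promoter peaks 1, that of Kcnj8, had a log2 ratio below 0, and their median was 0.31. Of the neuronal markers, Rbfox3 had 273 counts in the knockout library and 389 in the flox/flox library, and Snap25 had 78 and 78. In bulk tissue, fewer cells of a type and less accessible DNA per cell cannot be told apart, and the part of these cell-type differences in the values below was not tested.

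Across the family, accessibility was lower in the knockout library at most peaks, by a modest amount. The median log2 ratio of the 207 Kcn peaks was -0.21, with quartiles at -0.62 and 0.22, and 138 of them (66.7%) lay below 0, against 54.1% of all peaks. At least 2-fold lower were 25 peaks (12.1%), against 8.96% of all peaks, and at least 2-fold higher were 10 (4.83%), against 6.09%. The split depended on the scaling: with a loess trend over signal removed 18 Kcn peaks were lower and 15 higher (5.07% and 8.84% of all peaks), and on the authors' RPM scale 32 and 7 (12.3% and 4.01% of all). The Kcn median then moved to -0.14 and -0.38, where the median of all peaks was 0.01 and -0.22. The counting interval lay wholly below a ratio of 1 at 57 Kcn peaks (27.5%, against 21.7% of all) and wholly above at 26 (12.6%, against 17.7%). Summed over the family, the peaks held 12922 counts in the knockout library and 15906 in the flox/flox library, a CPM ratio of 0.849.

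The median difference was larger away from start sites than at them. These values include peaks called in 1 library alone, described below, and the contrast was not repeated without them. The 137 Kcn peaks outside promoters had a median log2 ratio of -0.30, against -0.09 for all such peaks, with 94 below 0 (68.6%, against 55%). Of these peaks 22 were at least 2-fold lower (16.1%, against 12%) and 6 at least 2-fold higher (4.38%, against 7.79%). The 70 promoter peaks, those within 1 kb of a start site in the authors' annotation, had a median of -0.14, against -0.02 for all promoter peaks, with 44 below 0 (62.9%, against 52.4%), 3 at least 2-fold lower (4.29%, against 2.87%) and 4 higher (5.71%, against 2.7%). Intronic peaks had the lowest median, -0.36 over 76 peaks against -0.13 for all intronic peaks. Kcn promoters were also weakly open: their peaks had a median of 9.92 CPM, against 21.1 CPM for all promoter peaks.

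Most of the 2-fold differences fell on weak peaks that 1 library's peak calling had picked up. Of the 207 Kcn peaks 91 were called in both libraries (44%, against 55% of all peaks), 33 in the knockout library alone (15.9%, against 15.9%) and 83 in the flox/flox library alone (40.1%, against 29.1%). Of the 25 lower peaks 24 were called in the flox/flox library alone, and all 10 higher ones in the knockout library alone. A peak called in a single library was chosen for a high count there, so these folds are not evidence of their direction. Among the 91 Kcn peaks called in both libraries the median was -0.15, against 0.01 for all such peaks, with 59 below 0 (64.8%, against 48.7%). In that subset 1 peak, the Kcnj3 promoter, was at least 2-fold lower (1.1%, against 1.02%) and none was 2-fold higher (0%, against 0.851%). Among the 87 Kcn peaks above the median CPM of the whole table the median was -0.21, against 0.00, with 61 below 0 (70.1%, against 49.9%), 7 at least 2-fold lower (8.05%, against 2.26%) and none at least 2-fold higher (0%, against 2.13%).

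Taken peak by peak, with peaks called in 1 library included, auxiliary subunits had the lowest median of the 5 structural classes and 2-pore channels the highest. Beside these, 54.1% of all peaks lay below 0, 8.96% were at least 2-fold lower and 6.09% higher. The 38 peaks of auxiliary subunits had a median log2 ratio of -0.33 with 28 below 0 (73.7%), 7 at least 2-fold lower (18.4%) and 2 higher (5.26%), and without the 8 peaks of Kcnip2 the median was -0.25. The 88 voltage-gated peaks had a median of -0.24 with 59 below 0 (67%), 12 at least 2-fold lower (13.6%) and 7 higher (7.95%). The 29 inward rectifier peaks had a median of -0.23 with 20 below 0 (69%), 3 at least 2-fold lower (10.3%) and none higher. All class medians lay within the quartiles of the family as a whole, and no difference between classes could be tested. Calcium- or sodium-activated channels had a median of -0.18 over 24 peaks, with 2 at least 2-fold lower (8.33%) and 1 higher (4.17%), and 2-pore channels -0.15 over 28 peaks, with 1 lower (3.57%) and none higher. Called in the flox/flox library alone were 17 auxiliary, 35 voltage-gated and 12 inward rectifier peaks, and in the knockout library alone 5, 17 and 1. Among peaks called in both, the medians were -0.32 for auxiliary, -0.20 for inward rectifier and -0.14 for 2-pore channels. They were -0.13 for voltage-gated and -0.05 for calcium- or sodium-activated channels, the highest of the 5, against 0.01 for all such peaks. Taken gene by gene, the order was different: the median log2 ratio of summed counts was -0.41 for 12 inward rectifier genes, -0.14 for 31 voltage-gated, -0.13 for 11 auxiliary, -0.09 for 11 2-pore and -0.0032 for 6 calcium- or sodium-activated genes, against -0.05 over all identifiers.

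At the strongest promoter peak of each gene the classes were ordered differently. The 54 genes with a promoter peak had a median log2 ratio of -0.11, against -0.02 over 14854 identifiers, and 32 lay below 0 (59.3%, against 53.2%). Inward rectifiers had the lowest promoter median, -0.60 over 7 genes with 6 below 0, followed by auxiliary subunits at -0.27 over 8 genes with 6 below 0. The promoters of Kcnj11, whose value is the inward rectifier median, Kcnj14 and Kcnj15 were called in the flox/flox library alone. Among promoter peaks called in both libraries the medians were -0.34 over 4 inward rectifier genes and -0.21 over 5 auxiliary genes. Voltage-gated promoters centred near 0, at -0.04 over 26 genes with 13 below 0, a median that turned to 0.01 when all peaks were centred on their median. Kcnj3 was the single strongest promoter at least 2-fold lower (1.85%, against 2.29%). Higher by 2-fold were those of Kcng1, Kcnc2 and Kcnma1 (5.56%, against 2.04%), each called in the knockout library alone. The promoter of Kcng1, a silent subunit that modifies partner channels, had 38 counts in the knockout library and 8 in the flox/flox library, that of Kcnc2, a fast voltage-gated channel of neurons, had 42 and 21, and that of Kcnma1, the large-conductance calcium-activated channel, had 62 and 31.

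**Figure D1:**
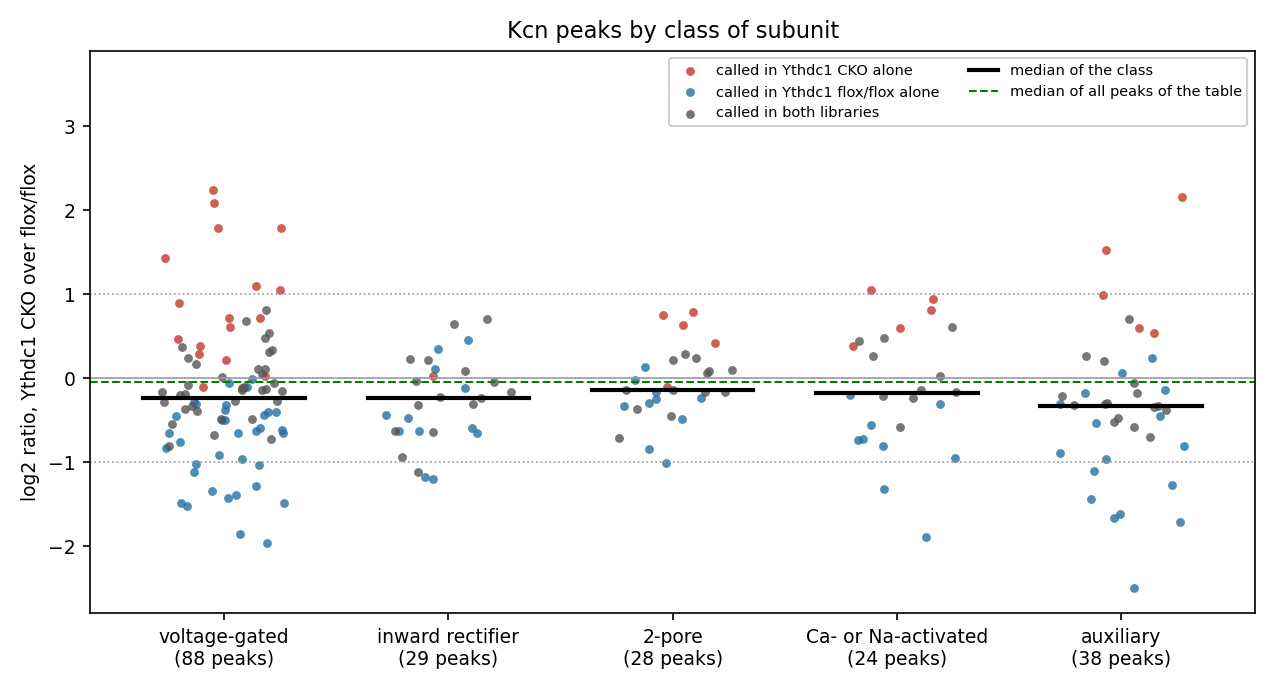
Log2 ratio of knockout over flox/flox (vertical axis) for each Kcn peak, by class of channel subunit, coloured by the library in which the peak was called, with a bar at each class median, a dashed line at the median of all peaks and dotted lines at 2-fold. The medians run from -0.33 for auxiliary subunits to -0.15 for 2-pore channels, and the points of every class spread on both sides of 0.

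Kcnh2 (ENSMUSG00000038319, chromosome 5, minus strand) forms the pore of the rapid delayed rectifier current, and its loss of function in people lengthens the QT interval. It had 8 assigned peaks, with 775 counts in the knockout library and 1044 in the flox/flox library, a ratio of 0.776 with an interval of 0.706 to 0.852. The difference was uneven along the gene. The strongest peak, at 24329237 to 24330087, covers the internal start of a shorter transcript and the sequence window shown above. It had 145 counts (22.4 CPM) in the knockout library and 295 (43.7 CPM) in the flox/flox library, a log2 ratio of -0.96 and an interval of 0.418 to 0.629 on the ratio. That peak was called in the flox/flox library alone, despite its height in both.

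A second low Kcnh2 peak lies 84 bp upstream of the long transcript, at 24351688 to 24352125, with 106 counts in the knockout library and 177 in the flox/flox library (log2 ratio -0.67, ratio interval 0.487 to 0.8). In contrast, a promoter-annotated peak at 24327092 had 98 counts in the knockout library and 62 in the flox/flox library, a log2 ratio of 0.72 with a ratio interval of 1.19 to 2.31, and was called in the knockout library alone. The internal promoter was thus lower, and the next peak along the gene higher, in the same library, and the mean log2 ratio over the 4 promoter peaks of Kcnh2 was -0.30. Of the other Kcnh2 peaks, 4 had ratio intervals that held 1, among them an intronic peak at 24344594 with 143 counts in the knockout library and 156 in the flox/flox library. The distal peak at 24300164 had 32 counts in the knockout library and 53 in the flox/flox library, a ratio of 0.631 with an interval of 0.394 to 0.996. Inside the Kcnh2 span, 2 further peaks called in both libraries are assigned to another identifier. The one at 24337311 had 132 counts in the knockout library and 212 in the flox/flox library (ratio 0.65, interval 0.519 to 0.812). The one at 24335951 had 69 and 78. Kcne2, an auxiliary subunit reported to associate with the Kcnh2 channel, had a single weak peak with 26 counts in the knockout library and 23 in the flox/flox library.

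Kcnip2 (ENSMUSG00000025221, chromosome 19, minus strand) encodes the calcium-binding subunit that the fast transient outward current needs in the mouse ventricle. All 8 of its assigned peaks had a log2 ratio below 0, from -1.44 to -0.34, and their sum was 352 counts in the knockout library and 585 in the flox/flox library, a ratio of 0.629 with an interval of 0.549 to 0.719. Called in the flox/flox library alone were 4 of the 8, the promoter and the lowest ratio among them, and the 4 called in both summed to 247 counts in the knockout library and 380 in the flox/flox library, a ratio of 0.679 with an interval of 0.576 to 0.799. The Kcnip2 promoter, at 45816073 to 45816317, was weak, with 29 counts in the knockout library and 44 in the flox/flox library. Its log2 ratio was -0.53 and the interval on the ratio, 0.415 to 1.13, held 1. The intronic peak at 45805022 had 26 counts in the knockout library and 51 in the flox/flox library.

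The other 6 Kcnip2 peaks lie upstream within introns of the neighbouring gene Armh3, and the authors' table assigns them to Kcnip2 as the nearest start site. The tallest, at 45902389 to 45902888, had 86 counts in the knockout library and 146 in the flox/flox library (log2 ratio -0.70), and the next, at 45854568, had 80 and 125 in the same order (log2 ratio -0.58). The lowest ratio among them, -1.44, came from 17 counts in the knockout library and 49 in the flox/flox library at 45899313. All 4 Kcnip2 peaks called in both libraries are among these 6. Most of the Kcnip2 sum therefore comes from open regions that overlap another gene, and which gene they act on was not measured.

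**Figure D2:**
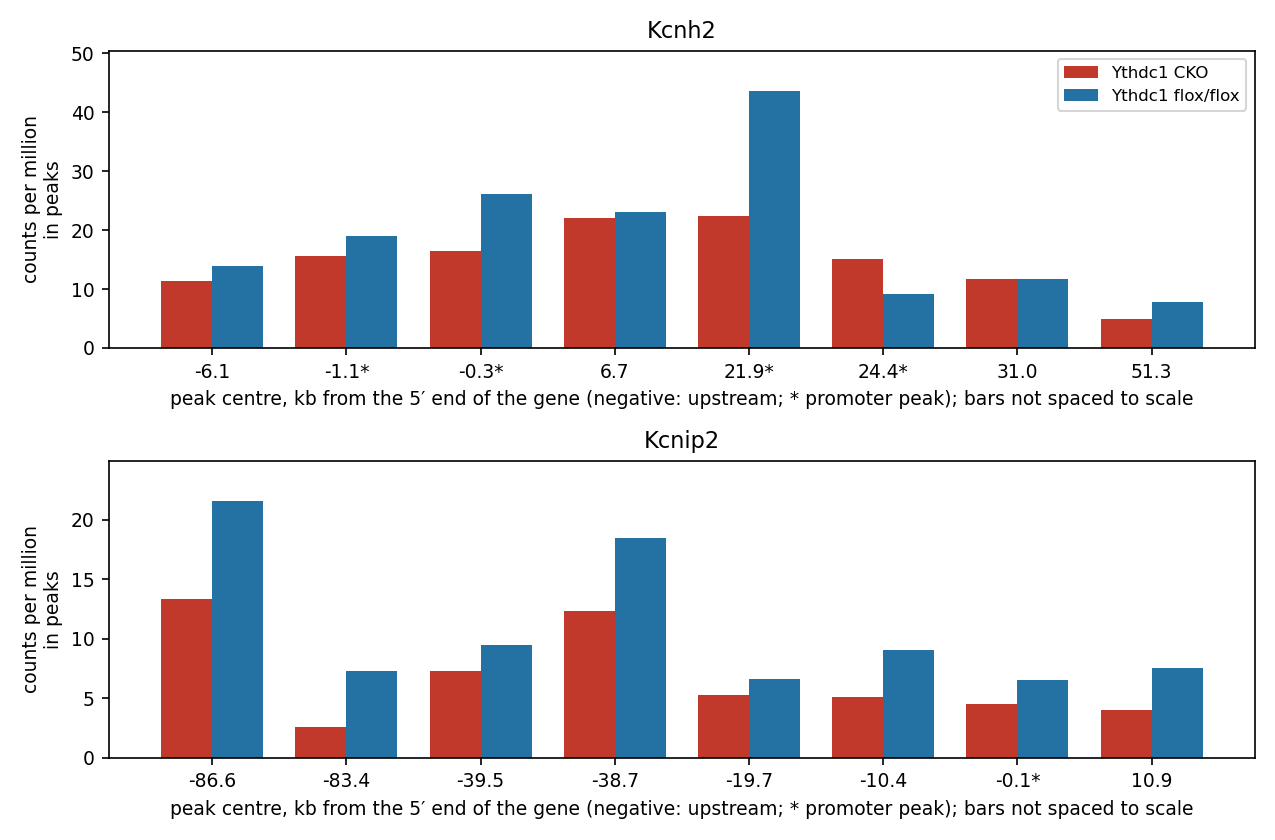
CPM (bars, from 0) of each assigned peak of Kcnh2 and of Kcnip2 in the Ythdc1 CKO library and the flox/flox library, ordered by distance in kb of the peak centre from the 5′ end of the gene, not spaced to scale, with 1 library per genotype and no error bars. The strongest Kcnh2 peak stands at 22.4 CPM in the knockout and 43.7 CPM in flox/flox and its neighbour at 15.2 and 9.18 CPM, while all 8 Kcnip2 peaks are lower in the knockout.

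Across the genes of the transient outward current, 17 of 18 peaks were below 0 (94.4%, against 54.1% of all peaks), but 10 of the 18 were called in the flox/flox library alone and none in the knockout library alone. Of the 8 called in both, 7 were below 0 (against 48.7% of all such peaks), with a median of -0.38 and a summed ratio of 0.775 (interval 0.694 to 0.866). Among those 8 were 4 Kcnip2 peaks within introns of Armh3, with 247 counts in the knockout library and 380 in the flox/flox library. The ratio without them was not computed. Over all 18 peaks, summed CPM was 127 in the knockout library and 191 in the flox/flox library, a ratio of 0.666 with an interval of 0.609 to 0.727. Kcnd3, a pore-forming subunit of the current, had all 6 peaks below 0 and 245 counts in the knockout library against 407 in flox/flox (ratio 0.629, interval 0.534 to 0.739). Its promoter differed little, with 86 counts in the knockout library and 98 in the flox/flox library, whereas intronic peaks at 105600499 and 105620995 on chromosome 3 had 19 and 43 counts in the knockout library against 73 and 93 in flox/flox. Both intronic peaks and 2 others were called in the flox/flox library alone, and over the 2 Kcnd3 peaks called in both the ratio was 0.858 with an interval of 0.675 to 1.09 that held 1. Kcnd2, the other main pore-forming subunit, had 1 peak, at its promoter, with 71 counts in the knockout library and 104 in the flox/flox library (ratio 0.713, interval 0.52 to 0.974). Kcna4, which forms the slow component, had an even promoter with 114 counts in the knockout library and 115 in the flox/flox library. A Kcna4 peak past the gene's start, at 107306154 on chromosome 2, had 13 and 39 and was called in the flox/flox library alone.

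Of the genes of the ultra-rapid and slowly inactivating currents, Kcna5 stood higher in the knockout library at its promoter. Kcna5, a channel that opens very rapidly on depolarisation, had the highest strongest-promoter ratio of the 16 cardiac channel genes with a promoter peak. Its promoter had 252 counts (39 CPM) in the knockout library and 181 (26.8 CPM) in the flox/flox library. The log2 ratio was 0.54 with a ratio interval of 1.2 to 1.77. That promoter peak was called in both libraries. Summed over its 8 peaks Kcna5 had 583 counts in the knockout library and 528 in the flox/flox library (ratio 1.15, interval 1.02 to 1.3), although 5 of the 8 lay below 0. Of the 8, 3 were called in both libraries, 3 in the flox/flox library alone and 2 in the knockout library alone. A Kcna5 peak at 126529893, called in both, had 71 counts in the knockout library and 109 in the flox/flox library. The ratio over the peaks called in both was not computed. The auxiliary subunit gene Kcnab1 had 142 counts in the knockout library and 158 in the flox/flox library over 5 peaks.

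Over the assigned peaks of the slow delayed rectifier genes, the auxiliary subunit gene differed more than the pore-forming one. Kcne1, which slows the gating of the Kcnq1 channel, had 591 counts in the knockout library and 823 in the flox/flox library over 6 peaks (ratio 0.75, interval 0.674 to 0.835), and 5 of the 6 lay below 0. Kcne1's lowest peak, 1499 bp inside the gene and called in the flox/flox library alone, had 39 counts in the knockout library and 88 in the flox/flox library. The Kcne1 promoter had 52 and 68. Kcnq1, the pore-forming gene, had 246 counts in the knockout library and 269 in the flox/flox library over 3 peaks, a ratio of 0.955 whose interval of 0.8 to 1.14 held 1. A further 19 peaks inside the Kcnq1 span are assigned to other identifiers and are not in this sum, with 9 below 0. Among those called in both libraries, the peak at 143124150 had 132 counts in the knockout library and 229 in the flox/flox library. The one at 143407899 had 198 and 102.

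Among inward rectifiers, the genes of the resting current stood apart in value from those opened by acetylcholine or closed by ATP. Kcnj2 and Kcnj12, which carry the resting inward rectifier current, gave a summed ratio of 1.04 with an interval of 0.941 to 1.16. The Kcnj2 promoter, among the most open of the family, had 271 counts (41.9 CPM) in the knockout library and 290 (42.9 CPM) in the flox/flox library. Kcnj12 had 439 counts in the knockout library and 417 in the flox/flox library, and its highest ratio was at an intronic peak with 92 counts in the knockout library and 59 in the flox/flox library.

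The acetylcholine-activated channel is built from the products of Kcnj3 and Kcnj5, found mainly in atrium and pacemaker cells. All 6 of their peaks were below 0, with a summed CPM of 64 in the knockout library and 97.7 in the flox/flox library (ratio 0.655, interval 0.578 to 0.742). The only Kcnj3 peak, at its promoter, had 50 counts (7.73 CPM) in the knockout library and 114 (16.9 CPM) in the flox/flox library, a log2 ratio of -1.12 with a ratio interval of 0.322 to 0.644. It was called in both libraries and was the only Kcn peak called in both that passed the 2-fold rule. Kcnj5 had 364 counts in the knockout library and 546 in the flox/flox library over 5 peaks, none annotated within 1 kb of a start site, and the tallest, at 32313994 on chromosome 9, had 167 and 270.

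The ATP-sensitive channel genes gave a summed ratio of 0.668 with an interval of 0.597 to 0.747. Kcnj11, the pore of the ventricular form, had 4 peaks around the gene, of which 3 were lower and 1 was even. The 3 lower ones had 56, 166 and 100 counts in the knockout library against 133, 263 and 146 in flox/flox, and all 3 were called in the flox/flox library alone. The remaining Kcnj11 peak had 85 counts in the knockout library and 87 in the flox/flox library. Kcnj8, the pore of the form in vascular smooth muscle and pericytes and itself one of the pericyte markers above, had 1 peak, with 108 counts in the knockout library and 176 in the flox/flox library (ratio 0.641, interval 0.5 to 0.819). The receptor subunit Abcc9 had 340 counts in the knockout library and 447 in the flox/flox library, and Abcc8 had 655 and 769 with all 7 of its peaks below 0. Called in the flox/flox library alone were 3 of the 6 Abcc9 peaks and 4 of the 7 Abcc8 peaks. The Abcc9 promoter, called in both libraries, had 81 counts in the knockout library and 68 in the flox/flox library.

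**Figure D3:**
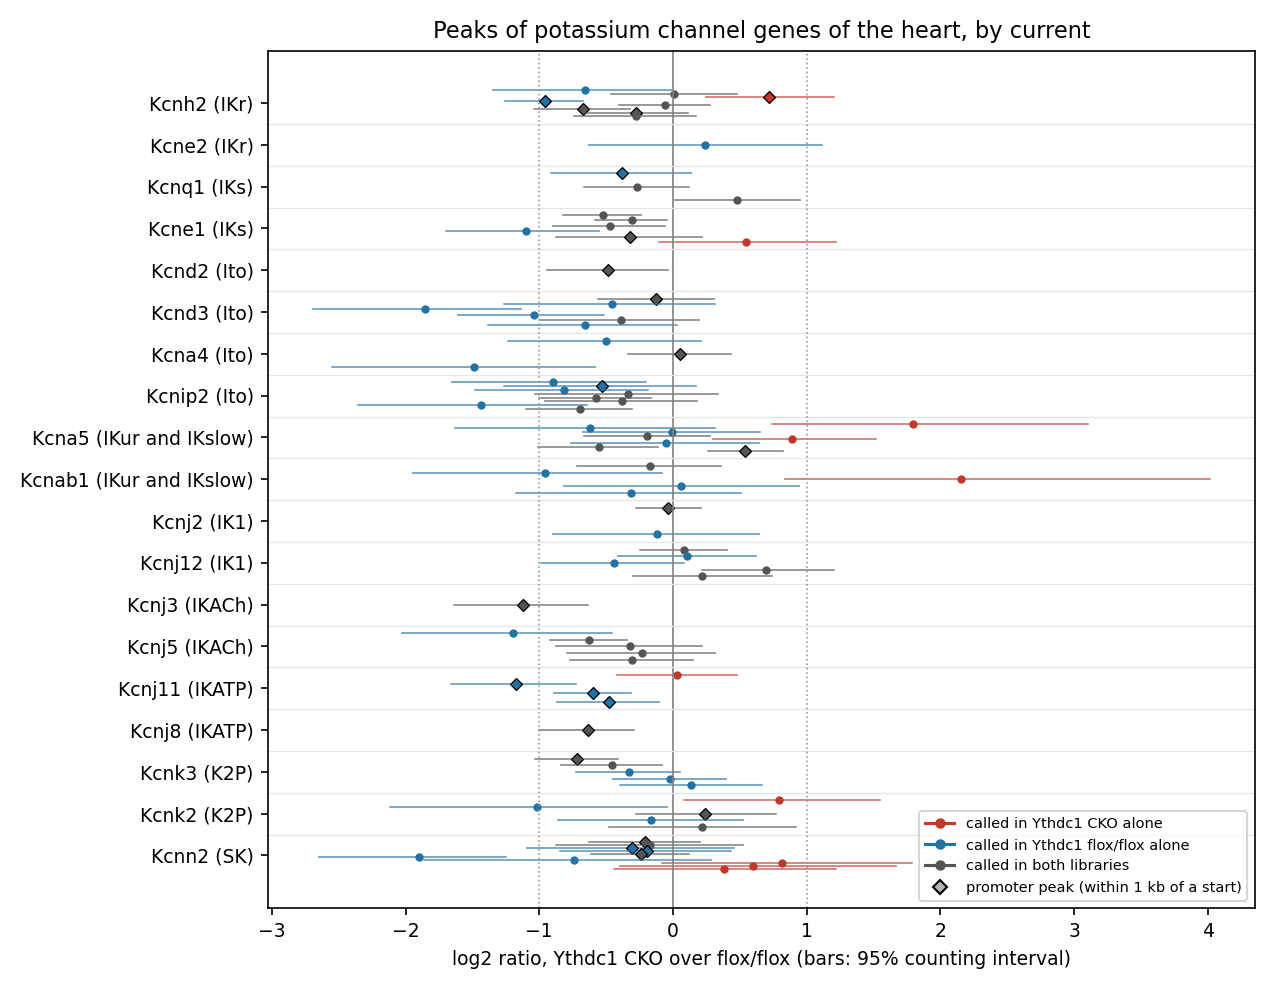
Log2 ratio of knockout over flox/flox (horizontal axis) at each peak of 19 of the 20 cardiac potassium channel genes, ordered by current, with exact 95% counting intervals, colours for the library in which a peak was called, diamonds for promoter peaks and dotted lines at 2-fold. The transient outward genes (Ito) lie to the left of 0 at 17 of 18 peaks and the acetylcholine-activated genes (IKACh) at 6 of 6, while the resting inward rectifier genes (IK1) do so at 3 of 7.

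The background channel genes gave a summed ratio of 0.84 with an interval of 0.759 to 0.928. Kcnk3, an acid-sensitive background channel, had 500 counts in the knockout library and 680 in the flox/flox library (ratio 0.768, interval 0.683 to 0.863), and the widest gap was at its promoter, with 140 counts in the knockout library and 241 in the flox/flox library. Kcnk2, a stretch-sensitive background channel, had 200 counts in the knockout library and 191 in the flox/flox library over 5 peaks. Kcnn2, a small-conductance calcium-activated channel and the gene with the most peaks, had 423 counts in the knockout library and 544 in the flox/flox library over 10 peaks (ratio 0.812, interval 0.714 to 0.924). Of the 10, 4 were called in the flox/flox library alone and 3 in the knockout library alone. Over the 3 called in both the ratio was 0.858 with an interval of 0.72 to 1.02 that held 1. A single intronic Kcnn2 peak, with 23 counts in the knockout library and 91 in the flox/flox library, had a log2 ratio of -1.90 and was called in flox/flox alone, and its main promoter peak had 114 and 141.

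Taking the 20 cardiac channel genes as 1 list, 69 of their 93 peaks (74.2%, against 54.1% of all peaks) were below 0 and the median was -0.31, with 11 peaks at least 2-fold lower (11.8%, against 8.96%) and 2 higher (2.15%, against 6.09%). Of the 93 peaks 40 were called in the flox/flox library alone and 10 in the knockout library alone, and 33 of the 43 called in both were below 0, with a median of -0.28. The list summed to a ratio of 0.797 with an interval of 0.772 to 0.824. The 51 other Kcn genes had 69 of 114 peaks (60.5%) below 0, a median of -0.14, 14 peaks at least 2-fold lower (12.3%) and 8 higher (7.02%), and a summed ratio of 0.907 with an interval of 0.877 to 0.937. The cardiomyocyte markers had 29 of 41 peaks (70.7%) below 0 and a median of -0.37, a summed ratio of 0.886 with an interval of 0.858 to 0.915, and 1 of the 41 peaks was at least 2-fold lower (2.44%) and 1 higher. Among peaks called in both libraries the summed ratio was 0.835 for the cardiac channel list and 0.913 for the cardiomyocyte markers. Whether the channel genes differ from cardiomyocyte genes in general was not tested.

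Among the other genes that the naming rule picked, values lay on both sides of 0. Kcnj6, a subunit of the G protein-gated channels of neurons, had an intronic peak called in both libraries with 151 counts in the knockout library and 302 in the flox/flox library (log2 ratio -0.93, ratio interval 0.427 to 0.637). Kcnab2, an auxiliary subunit of voltage-gated channels, had an intronic peak with 33 counts in the knockout library and 114 in the flox/flox library (log2 ratio -1.71), called in the flox/flox library alone. Kcna2, a voltage-gated channel of axons, had a distal peak with 44 counts in the knockout library and 94 in the flox/flox library, called in the latter alone. On the other side, the promoter of the silent subunit gene Kcns2, called in both libraries, had 83 counts in the knockout library and 49 in the flox/flox library (log2 ratio 0.82, ratio interval 1.23 to 2.57). Kcnma1 had intronic peaks of 87 and 28 counts in the knockout library against 47 and 74 in flox/flox. The first was called in the knockout library alone and the second in the flox/flox library alone. None of the 4 Kcnma1 peaks was called in both, so these folds are not evidence of their direction.

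The other peaks at the extremes of their class, among those above the median CPM, differed less. Of the inward rectifiers, Kcnj15 had an intronic peak with 90 counts in the knockout library and 60 in the flox/flox library (ratio interval 1.12 to 2.21). Among background channels, the Kcnk13 promoter had 80 counts in the knockout library and 78 in the flox/flox library, a Kcnk6 peak 1257 bp before the start had 73 and 107, and the Kcnk5 promoter had 72 and 97. Of these background channel peaks, that of Kcnk6 alone had a ratio interval clear of 1, at 0.522 to 0.969. It was called in the flox/flox library alone, whereas the Kcnk13 and Kcnk5 promoters were called in both. In the calcium- or sodium-activated class, the promoter of the sodium-activated channel gene Kcnt2 had 108 counts in the knockout library and 83 in the flox/flox library (ratio interval 1.01 to 1.83). Kcnn1, a small-conductance calcium-activated channel like Kcnn2, had one of the tallest Kcn peaks and an even one, with 308 counts in the knockout library and 315 in the flox/flox library. Its relative Kcnn3 had an intronic peak with 72 and 54 counts and a promoter with 60 and 69, in the same order. Promoters of the auxiliary genes Kcne3, Kcnip3 and Kcnab3 had 98, 69 and 81 counts in the knockout library against 85, 75 and 98 in flox/flox, and all 3 ratio intervals held 1.

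Counted by gene, 49 of the 71 Kcn genes (69%) had a summed log2 ratio below 0, against 55.4% of all identifiers. For 20 of them (28.2%) the interval of the summed ratio lay below 1, against 23.6% of all identifiers, and for 7 (9.86%) above 1, against 16.8%. Of the 15 Kcn genes with at least 5 peaks, Kcnip2, Kcnd3 and Kcnj5 had every peak below 0 (20%, against 4.53% of all identifiers with at least 5 peaks), with 4 of 8, 4 of 6 and 1 of 5 peaks, in that order, called in the flox/flox library alone, and none had every peak at or above 0 (0%, against 3.56%). Peaks of 1 gene share their locus and library and are not replicates of it. The 23 genes with no assigned peak were 9 voltage-gated (Kcna1, Kcna6, Kcnc4, Kcnd1, Kcng4, Kcnh4, Kcnh5, Kcnh7 and Kcns1), 3 inward rectifier (Kcnj4, Kcnj9 and Kcnj13), 3 2-pore (Kcnk1, Kcnk10 and Kcnk16), 2 calcium- or sodium-activated (Kcnt1 and Kcnu1) and 6 auxiliary genes (Kcne1l, Kcne4, Kcnmb1, Kcnmb2, Kcnmb3 and Kcnrg).

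**Figure D4:**
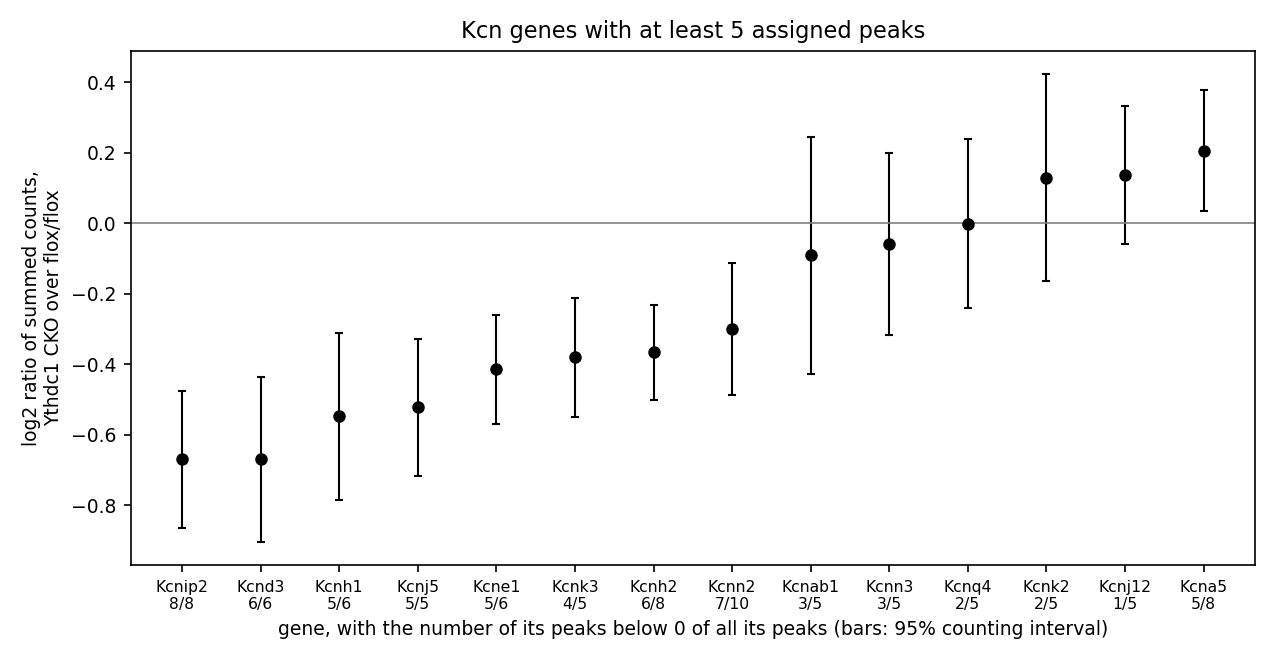
Log2 ratio of summed counts, knockout over flox/flox, for 14 of the 15 Kcn genes with at least 5 peaks, with exact 95% counting intervals and, under each name, the number of its peaks below 0 of all its peaks. Kcnip2 and Kcnd3 stand lowest at -0.67 and Kcna5 highest at 0.21.

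Of 13 genes listed as partners or regulators of these channels, 8 had assigned peaks, 27 in all, with 19 below 0 (70.4%, against 54.1% of all peaks), 5 at least 2-fold lower (18.5%, against 8.96%) and 2 higher (7.41%, against 6.09%), and a median log2 ratio of -0.24. Over the 14 of these called in both libraries the median was -0.02. Dpp6, a membrane partner of the transient outward channel, had 67 counts in the knockout library and 121 in the flox/flox library over 3 peaks (ratio 0.578, interval 0.423 to 0.786). Its promoter, the only one of the 3 called in both libraries, had 38 and 34. The 2 low Dpp6 peaks were called in the flox/flox library alone, so the summed ratio is not evidence of direction. Akap9, a scaffold of the Kcnq1 channel, had 287 counts in the knockout library and 370 in the flox/flox library. Irx3, an Iroquois transcription factor of the conduction system, had 555 counts in the knockout library and 491 in the flox/flox library at its promoter (ratio 1.18, interval 1.04 to 1.34).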

How the data were processed

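Whole-number counts per merged peak and library, peak annotation and per-library calls were deposited by the authors. Reads were aligned with BWA to GRCm38.p6 and peaks called with MACS2, per the submitters' processing notes; versions, read filters and any Tn5 shift are not stated there. The deposited RPM equals the count plus 1 times a constant per library (0.01822 knockout, 0.01965 flox/flox), and the log2 and ratio columns, also the authors', follow from it. The members and lists were chosen with earlier results of these data known.

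Identifiers were matched to RefSeq gene spans where overlap divided by union was at least 0.5 (62 genes) or at least 95% of the identifier lay inside the gene (9 genes), with potassium in the deposited ontology text. An identifier overlapping Kcna6 lacked that term. Counts were scaled to CPM over counts in peaks, 0.5 counts were added for log2 ratios, and no test was run. PCR reads without molecular identifiers are not independent molecules. Named by rule were Kcnh2, Kcnip2, 17 further cardiac channel genes, the 3 highest and 3 lowest peaks above the median CPM per class, 1 per gene, and the 5 genes with most peaks. Kcne2 was named as a further cardiac gene, and Kcng1, Kcnc2 and the genes without a peak after their values were seen. Of the genes named by rule 1 is not reported here, although counts over lists and classes include it. Alternatives were TMM scaling, centring on the median, the RPM scale, a loess trend, 5 counts added, stronger or doubly called peaks, a 1.5-fold rule, other matching and wider promoters. Python 3.11.15, numpy 2.4.6, pandas 2.3.3, scipy 1.17.1 and statsmodels 0.14.6 were used, tested on simulated data.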

Additional observations from a re-analysis of the deposited data

How the results depend on the processing

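Of 94 values recomputed under alternatives, 78 kept their sign and stayed within 1.5 times (counts), within the order-statistic interval of the median over members (medians) or within the counting interval (single promoters), while 13 moved and 3 reversed. The intervals of promoter medians are wide, so a median that stayed within its own could still differ by over 1.5 times: the Kcn promoter median was -0.04 with a loess trend removed, against -0.11 as reported. The 25 Kcn peaks at least 2-fold lower became 7 above the median CPM, 1 among peaks called in both libraries, 16 with names matched by both ends within 1 kb and 56 under a 1.5-fold rule, while the 10 higher became 0, 0, 5 and 28. The median over all Kcn peaks was -0.38 on the authors' RPM scale and -0.14 with a loess trend removed, and the promoter median was -0.29 on the RPM scale. The voltage-gated promoter median, -0.04 as reported, was 0.010 under TMM scaling, 0.010 centred on the median of all peaks, 0.10 with the loess trend removed and -0.21 on the RPM scale. The RPM scale lowers every log2 ratio by about 0.17. The internal Kcnh2 promoter, at -0.96, gave -0.30 as the mean over the promoter peaks of the gene, which include 1 with a positive ratio. The inward rectifier promoter median, over 7 genes, ran from -0.77 to -0.30 and that of auxiliary subunits, over 8, from -0.44 to -0.11. Beyond the changes that follow from fewer or weaker peaks, the cause was not tested. No paired analysis was possible because each genotype has 1 library, and for the same reason no replicate could be left out. Depth limits single peaks: 21 Kcn peaks had under 30 counts in both libraries.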

Other observations

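Inside the spans of 26 Kcn genes lay 74 further peaks that the authors' table assigns to other identifiers, with a median log2 ratio of -0.10, 44 below 0 (59.5%, against 54.1% of all peaks), 5 at least 2-fold lower (6.76%, against 8.96%) and 8 higher (10.8%, against 6.09%). Kcnq1, whose locus holds a cluster of imprinted genes, had 19 of them, with a median of 0.17 and 9 below 0. Kcng2, a silent subunit gene, had 7, with a median of -0.27 and 6 below 0. Kcnd3 had 5 with a median of -0.26 and 4 below 0. Assignment by the nearest start site therefore leaves part of the open chromatin inside these channel genes out of the values above.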
